A study of Mus musculus with 3 samples.

Results

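The DEAD box (Ddx) and DEAH box (Dhx) RNA helicase genes were described in a mouse multiple myeloma line, 5TGM1.BRE, that resists bortezomib. Members were all gene symbols beginning with Ddx or Dhx and a number, apart from the innate RNA sensors Ddx58 and Dhx58 and the Y-linked Ddx3y. The pattern matched 54 symbols, the rule left out those 3, and 51 of the 24467 listed genes remained, 36 Ddx and 15 Dhx genes. One of them, Ddx26b, carries the symbol Ints6l in the annotation, after an Integrator complex subunit, and was kept because the rule goes by symbol.

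The study sequenced polyadenylated RNA of 3 samples of 1 group. The 5TGM1 line is a transplantable plasma cell tumour of C57BL/KaLwRij mice, and BRE cells are a resistant derivative that engrafts and was taken back from mouse bone marrow. All 3 samples were resistant to bortezomib, a proteasome inhibitor, were kept in medium with 20% serum and 10 nM drug, and had the drug withdrawn for at least 72 h before RNA was prepared from 10000000 cells each. Sensitive parental cells were not analysed here, so no condition is compared with another, and the results are levels of the helicase genes and differences between libraries. The labels number the samples but name no separate cultures or mice, so the p-values speak only of the spread between these samples, and this spread may be technical.

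RNA helicases of these families use ATP to open RNA duplexes or to strip proteins from RNA. DEAD box enzymes act locally and let go of the strand, whereas DEAH box enzymes pull on or move along a strand, and several are switched on by cofactors with a G-patch. They drive the rearrangements of splicing, mRNA export, ribosome assembly, translation and RNA decay, steps on which a plasma cell relies to make secreted antibody.

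The libraries held 62303493, 45705994 and 59402218 counts in replicates 1, 2 and 3. Of 9 plasma cell markers, 8, all but Tnfrsf17, reached 1 CPM (count per 1000000 counts of the library) in every library. The summed level of the 9 was 4500 to 4610 CPM. Of the B cell markers only Ms4a1 reached that limit. No marker on the T and NK cell, myeloid, erythroid or stromal lists did, with summed levels of at most 1.14 CPM per list. Replicate 3 stood apart over all genes. A chi-square statistic of the counts, per degree of freedom, was 65.1 between replicates 3 and 1 and 44.4 between replicates 3 and 2, against 4.0 between replicates 1 and 2.

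Nearly the whole helicase family was expressed. At 1 CPM or more in all libraries stood 48 of the 51 members, or 94.1%, beside 40.9% of all listed genes. The median member had 96.0 CPM, beside 42.6 CPM among all genes at that limit. Together the members took 0.737% of all counts in replicate 3 (95% Wilson interval 0.735 to 0.739%), against 0.823% (0.821 to 0.825%) in replicate 1 and 0.818% (0.816 to 0.821%) in replicate 2. The share in replicate 3 thus lay below both others by more than counting error, the only error these intervals cover. Levels of different genes are compared below as CPM per kilobase of exon, the union of a gene's annotated exons unless another length is named.

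**Figure D1:**
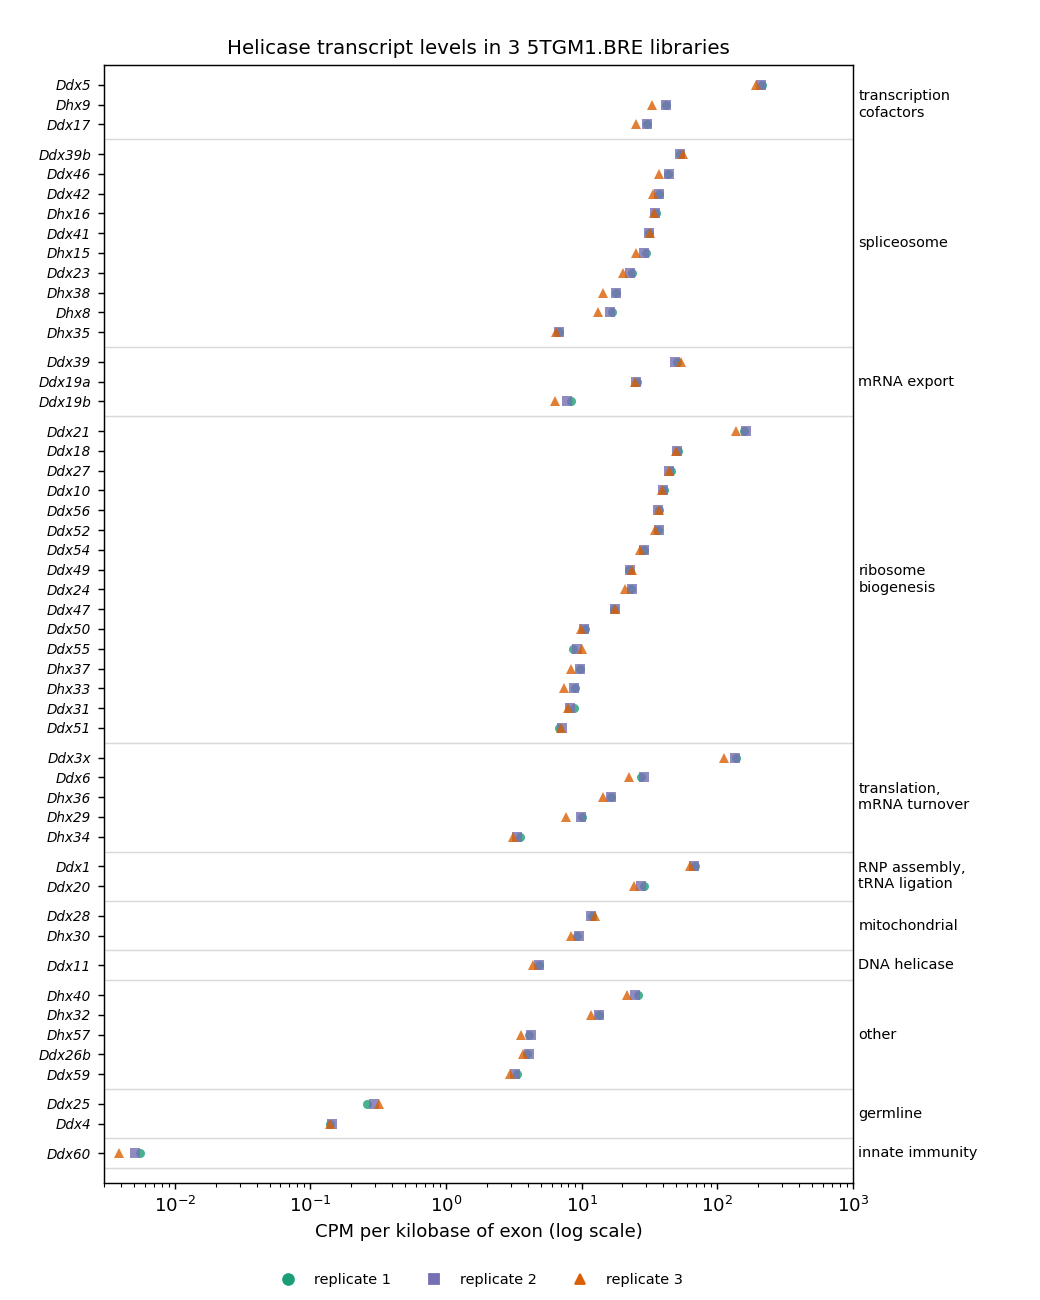
Level of each expressed helicase gene as CPM per kilobase of exon on a log axis, 1 point per library, with genes grouped by role. Ddx5, Ddx21 and Ddx3x lie above 100 CPM per kilobase in all 3 libraries, while Ddx25, Ddx4 and Ddx60 lie far below the rest. Ddx43, with no counts, is not drawn.

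A few genes dominated the family. Ddx5, a cofactor of transcription, splicing and microRNA processing, was the highest member, at 1227, 1208 and 1119 CPM in replicates 1, 2 and 3, or 205 ± 9.96 CPM per kilobase (SD, n = 3). Ddx21, a nucleolar helicase that couples transcription to the processing of ribosomal RNA, followed at 820, 838 and 713 CPM, or 153 ± 13.1 CPM per kilobase. Ddx3x, which helps ribosomes through structured leader sequences of mRNAs, had 721, 711 and 596 CPM, or 128 ± 13.2 CPM per kilobase. Replicate 3 was the lowest library for each of the 3, and the order of the 3 genes was the same in every library, with no overlap of their per-kilobase values. They made up 33.0% of all helicase counts in replicate 3, 33.7% in replicate 1 and 33.7% in replicate 2, a share that moved little (33.4 ± 0.419%, SD, n = 3) while the total of the family did. Ddx1, a subunit of the tRNA ligase complex, came next at 66.2 ± 3.23 CPM per kilobase.

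Below Ddx1, which did not overlap them, 3 members had similar levels. Ddx39b stood at 53.4, 53.3 and 56.1, Ddx39 at 50.7, 49.1 and 53.6, and Ddx18 at 51.3, 50.3 and 49.4 CPM per kilobase in replicates 1, 2 and 3. The ranges of Ddx39b and Ddx39 overlap, although Ddx39b was the higher of the pair in each library, and so do those of Ddx39 and Ddx18. Ddx27, the next in order, had 45.4, 43.9 and 43.8 CPM per kilobase and lay below Ddx18 without overlap. Ddx46 and Ddx10 completed the 10 highest members. The order also depended on the length used: per kilobase of the coding transcript (the protein-coding transcript with the longest coding sequence), Dhx9, Dhx15 and Ddx47 entered the 10 highest, and Ddx18, Ddx46 and Ddx10 left.

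The spliceosome needs a helicase at nearly every step, and all 10 members of this list were expressed, with a median of 29.7 CPM per kilobase. Ddx39b, which loads the U2 particle at the branch point and also packages mRNA for export, was the highest per kilobase of exon. Per kilobase of coding transcript Dhx15 was the highest, at 78.8 against 72.1 for Ddx39b. On plain CPM Ddx46 was, at 301 against 205 for Ddx39b. Ddx46, the relative of yeast Prp5 that remodels the U2 particle, had 41.3 ± 3.76 CPM per kilobase (SD, n = 3). Ddx23 displaces the U1 particle from the 5′ splice site, and Dhx16, Dhx38, Dhx8 and Dhx15 then drive activation, the second step, release of the mRNA and disassembly. These 5 enzymes stood between 15.4 CPM per kilobase (Dhx8) and 34.7 CPM per kilobase (Dhx16). Dhx35, a less studied component, was the lowest of the list at 6.68 ± 0.196 CPM per kilobase.

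Ribosome biogenesis was the largest list, with 16 of 16 members expressed and a median of 22.7 CPM per kilobase. After Ddx21 its highest members were Ddx18, Ddx27, Ddx10, Ddx56 and Ddx52, most of them known from their yeast relatives as assembly factors of the small or large ribosomal subunit. Ddx56 varied least of these 5 relative to its level, at 93.8, 92.1 and 93.8 CPM in replicates 1, 2 and 3. The lowest was Ddx51, a large-subunit factor, at 7.01 ± 0.186 CPM per kilobase, against 153 for Ddx21, so levels within the list spread widely. The order depended on the length here too. Per kilobase of coding transcript Ddx27, Ddx47, Ddx24, Ddx18 and Ddx56 came next after Ddx21.

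All 5 helicases of translation and mRNA turnover were expressed. Below Ddx3x came Ddx6, which represses translation and promotes decapping, at 26.2 ± 3.47 CPM per kilobase, and Dhx36, which unwinds G-quadruplexes, at 15.8 ± 1.23. Dhx29, which helps the scanning ribosome subunit, had 9.21 ± 1.29, and Dhx34, a factor of nonsense-mediated decay, had 3.31 ± 0.173 CPM per kilobase. The smaller lists were expressed too. Ddx20, a subunit of the SMN complex that assembles spliceosomal particles, had 26.9 ± 2.25 CPM per kilobase. The mitochondrial helicases Ddx28 and Dhx30, both needed for mitochondrial ribosomes, had 12.0 ± 0.465 and 9.06 ± 0.642 CPM per kilobase. Per kilobase of coding transcript their order reversed, at 12.0 for Ddx28 and 25.3 for Dhx30. Ddx11, a DNA helicase of sister chromatid cohesion, had 4.70 ± 0.275 CPM per kilobase of exon. Of 5 members with other or less defined functions, Dhx40 was the highest at 24.2 ± 2.26 and Ddx59 the lowest at 3.18 ± 0.179 CPM per kilobase.

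Germline and interferon-linked members marked the bottom of the family. Ddx43, known from testis and tumours, had no count in any library, which allows up to 0.0179 CPM over all libraries. Ddx60, an interferon-induced antiviral factor, had 3, 2 and 2 counts in replicates 1, 2 and 3. Ddx4, the Vasa homologue of germ cells, had 26, 20 and 25 counts, or 0.425 ± 0.0108 CPM (SD, n = 3). Each of these 3 was under 1 CPM in every library. Ddx25, a testis helicase, just passed that limit with 112, 93 and 131 counts, or 1.80, 2.04 and 2.21 CPM, and Ddx59, the next member up in CPM, had 9.38 ± 0.528 CPM. In bulk RNA, a low level in all cells and expression in few cells cannot be told apart.

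Several members are pairs of paralogs that share a function, and their balance can be read as a ratio within each library, free of scaling between libraries. Since reads can only be assigned where the sequences differ, the longest run of identical bases shared by the coding sequences of each pair is shown, from the GENCODE M21 transcripts.
Ddx5 and Ddx17: aaatttgagaagaatttttat
Ddx39b and Ddx39: atggatgtcctgtgccaggccaagtc
Ddx21 and Ddx50: ggaaagacattctcttttgccat
Ddx19a and Ddx19b: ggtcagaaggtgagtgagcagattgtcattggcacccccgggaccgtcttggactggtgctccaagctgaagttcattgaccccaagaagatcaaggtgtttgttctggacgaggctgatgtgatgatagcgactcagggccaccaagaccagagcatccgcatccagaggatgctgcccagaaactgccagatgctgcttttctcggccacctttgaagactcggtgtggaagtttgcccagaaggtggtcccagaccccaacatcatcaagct
These runs measure 21, 26, 23 and 275 bases, and the aligned coding sequences were identical at 70.9%, 81.2%, 71.5% and 93.2% of bases. The run of Ddx19a and Ddx19b spans bases 613 to 887 of the Ddx19a coding sequence and bases 661 to 935 of that of Ddx19b. Both genes lie next to each other on chromosome 8, 5387 bases apart, and Ddx21 and Ddx50 do so on chromosome 10, 13613 bases apart.

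Ddx5 exceeded its paralog Ddx17, which shares its roles as a transcription and splicing cofactor. The log2 ratio of their CPM per kilobase was 2.80, 2.78 and 2.95 in replicates 1, 2 and 3, a mean of 2.84 ± 0.093 (SD, n = 3) or 7.16-fold. Ddx39b and Ddx39, both of which hand mRNA to the export receptor, were nearly balanced, with log2 ratios of 0.08, 0.12 and 0.06 and a mean of 0.09 ± 0.029 or 1.06-fold. That balance rested on length: on plain CPM the ratio reversed, to a mean log2 of -0.36 or 0.779-fold, while per kilobase of coding transcript it was 0.07.

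Ddx19a exceeded Ddx19b, the paralogous export helicases that release mRNA at the nuclear pore, with log2 ratios of 1.63, 1.69 and 1.94 and a mean of 1.75 ± 0.16 or 3.37-fold. Per kilobase of coding transcript this was 1.80-fold, and on plain CPM 1.48-fold. Ddx21 exceeded Ddx50, its nucleolar neighbour, with log2 ratios of 3.92, 3.96 and 3.79 and a mean of 3.89 ± 0.088 or 14.8-fold, but 4.07-fold per kilobase of coding transcript and 7.58-fold on plain CPM. Outside the members, the DEAD box initiation factor Eif4a1 exceeded Eif4a2 by a mean log2 ratio of 1.36 ± 0.075 or 2.56-fold. Per kilobase of coding transcript this was 1.44-fold, and on plain CPM 2.08-fold. Each of the 5 ratios had the same sign in 3 of 3 libraries. Flipping the signs over the libraries, an exact permutation test (two-sided) put p at 0.25 for each ratio and the adjusted p at 0.25 over the 5, which is the smallest value that 3 libraries allow.

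**Figure D2:**
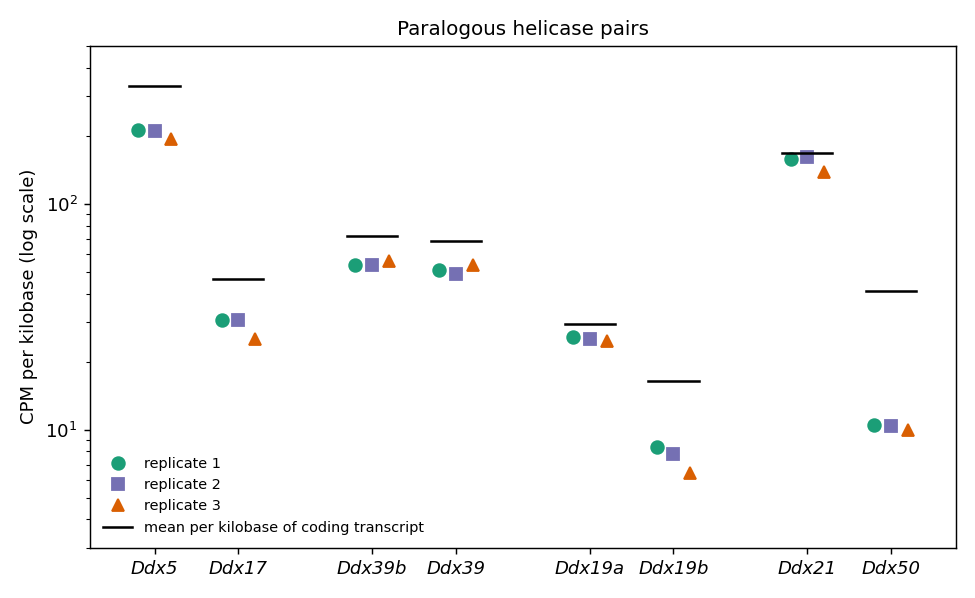
Levels of the 4 paralog pairs as CPM per kilobase of exon on a log axis, 1 symbol per library, with a bar at the mean per kilobase of coding transcript instead. The first gene of the Ddx5, Ddx19a and Ddx21 pairs lies above its paralog in every library by either length, and Ddx39b and Ddx39 lie close together.

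Some member counts can hold reads of other genes, because the sources used here do not say how the authors counted or whether strand was used. Of the 51 members, 26 shared no 50-base window with another annotated gene on either strand, and 10 shared over 10% of such windows or overlapped another gene by over 10% of their exons. Ddx18 shared 62.7% of its windows, mainly with the processed pseudogene Gm16433, and Ddx5 shared 22.7%, mainly with Gm12183. Ddx19a and Ddx19b shared 33.3% and 27.2%, each mainly with the other. Ddx49 shared 35.1%, mainly with Homer3. That gene lies across it on the opposite strand and had 554, 388 and 527 counts of its own in replicates 1, 2 and 3. Ddx39 shared 16.6%, mainly with Adgre5, also on the opposite strand, which had 5, 4 and 15 counts. The others were Ddx50, Ddx54, Ddx43 and Ddx41, and the values of all 10 are uncertain to that extent.

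Replicate 3 stood apart for the helicases too, with lower levels of many of them. Each library was tested against the other 2 with edgeR's quasi-likelihood test and Benjamini-Hochberg adjustment over the 11308 genes tested, at an adjusted p of 0.05. Of the 49 members tested, 22 were lower in replicate 3 than in replicates 1 and 2 and 3 were higher. Over all tested genes the test called 26.8% lower and 24.8% higher, so the members' shares, 44.9% and 6.12%, leaned to the lower side. The median log2 fold change of the members was -0.09, beside 0.01 over all tested genes. It was negative for 36 of the 49 members, beside 5551 of all 11308 genes. In this test 51.6% of all genes were called in either direction, and it compares libraries and not conditions. Its 1 residual degree of freedom is the difference between replicates 1 and 2, the most alike pair, and replicate 3 was already known to stand apart. The calls therefore describe how far replicate 3 lay from that pair, and their p-values carry no evidence about other samples of these cells.

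Most DEAH box genes were called lower. Of 15 Dhx genes tested, 12 were lower in replicate 3 and 0 higher (12 at an unadjusted p of 0.05 with edgeR, and 8 lower and 0 higher with DESeq2), with a median log2 fold change of -0.19. Of 34 Ddx genes, 10 were lower and 3 higher, with a median of -0.06. By role, 6 of 10 spliceosomal helicases and 4 of 5 of translation and mRNA turnover were lower, and 4 of 16 of ribosome biogenesis were, the last near the 26.8% of all tested genes. These lists also differed in transcript length, with which the difference of replicate 3 went (below). Their median coding transcripts had 4692 bases for translation and mRNA turnover, 3318 for the spliceosome and 3096 for ribosome biogenesis. With the trend on coding transcript length removed, fewer helicases of each of these lists were called lower. No test of these differences between lists was made.

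Among the members called lower, Dhx29 had 46.4 CPM in replicate 3, against 60.6 and 59.0 in replicates 1 and 2, a log2 fold change of -0.34 (SE 0.046, adjusted p = 5.36e-12, edgeR's quasi-likelihood test with Benjamini-Hochberg adjustment). Dhx9, which resolves double-stranded RNA and RNA-DNA hybrids, had 316 CPM in replicate 3, against 403 and 406 (log2 fold change -0.33, SE 0.043, edgeR adjusted p = 5.37e-13). Ddx6 had 179 CPM in replicate 3, against 221 and 232 (log2 fold change -0.31, SE 0.041, edgeR adjusted p = 1.27e-12). The values of replicates 1 and 2 lay close together in each case and replicate 3 lay apart below them. Ddx19b had 43.3 CPM in replicate 3, against 56.3 and 52.8 (log2 fold change -0.31, SE 0.050, edgeR adjusted p = 7.14e-09), while its paralog Ddx19a had 72.6, against 76.2 and 74.7 (log2 fold change -0.03, edgeR adjusted p = 0.634). Dhx38, the helicase of the second splicing step, had 71.3 CPM in replicate 3, against 89.3 and 88.6 (log2 fold change -0.29, SE 0.042, edgeR adjusted p = 4.43e-11). All 5 were at about 0.8 of their level in the other libraries, and Ddx3x and Ddx21, among the 3 highest members, were also called lower, with log2 fold changes of -0.23 and -0.19.

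A few members went the other way. Ddx55, a large-subunit assembly factor, had 53.2 CPM in replicate 3, against 46.2 and 49.2 in replicates 1 and 2 (log2 fold change 0.19, SE 0.050, edgeR adjusted p = 0.000365), though DESeq2 gave an adjusted p of 0.0797. Ddx39 had 277 CPM in replicate 3, against 261 and 253 (log2 fold change 0.14, SE 0.041, edgeR adjusted p = 0.00245). Ddx39b had 212 CPM in replicate 3, against 202 and 202 (log2 fold change 0.10, SE 0.040, edgeR adjusted p = 0.0246), a call that was lost with no scaling (0.135), with DESeq2 (0.144), and with the trend on union exon length (0.148) or GC content (0.38) removed. These are small differences, in which replicate 3 lay above both other libraries. Ddx5, the highest member, was not called (log2 fold change -0.09, SE 0.047, edgeR adjusted p = 0.0958).

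**Figure D3:**
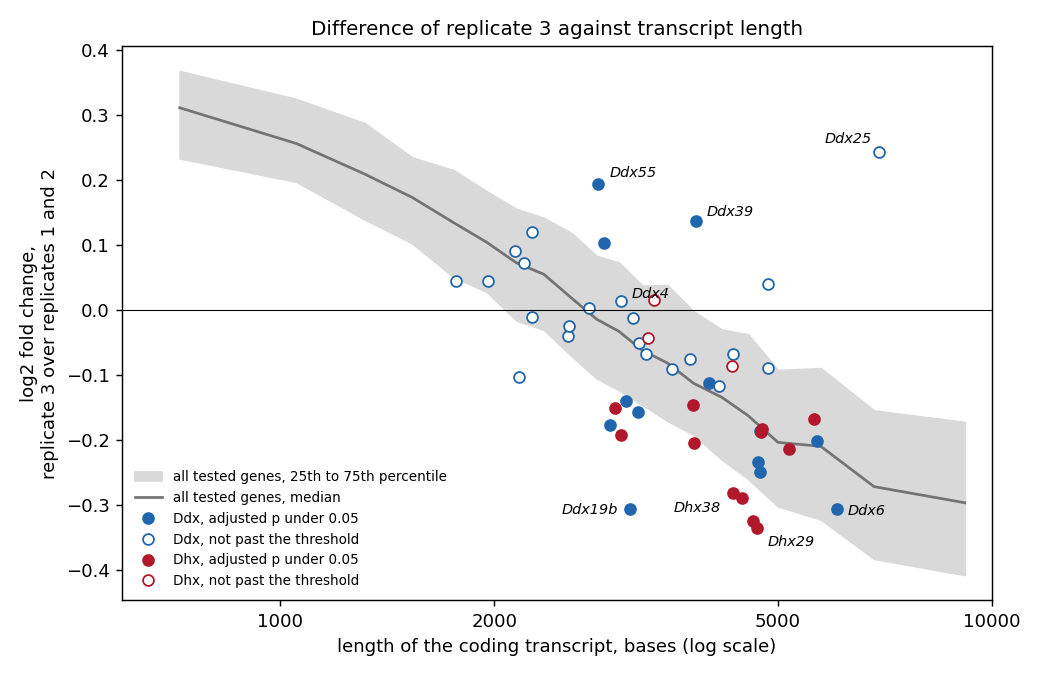
Log2 fold change of replicate 3 over replicates 1 and 2 for the 49 tested members against the length of the coding transcript on a log axis, with the median and the 25th to 75th percentile of all tested genes as a line and a band. The median of all genes falls with length, most Dhx genes have longer transcripts than most Ddx genes, Ddx19b lies well below the band, and Ddx55, Ddx39 and Ddx25 lie well above it.

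The difference of replicate 3 went with transcript length, over all genes and among the members. Over 10621 genes the Spearman correlation of log2 fold change with coding transcript length was -0.68 (Pearson r -0.60), and over the 49 members it was -0.53 (Pearson r -0.45). These correlations run across genes of the same 3 libraries, which are not independent replicates. Of the 24 members with shorter transcripts, 1764 to 3351 bases, 6 were lower and 2 higher, with a median of -0.02, beside 12.9% lower and 20.2% higher and a median of 0.03 among all 3924 tested genes of that length. Of the 25 with longer transcripts, 3559 to 6934 bases, 16 were lower and 1 higher, with a median of -0.18, beside 55.3% lower and 4.67% higher and a median of -0.16 among 3127 genes of that length. The Dhx genes had longer coding transcripts than the Ddx genes, with medians of 4325 and 3158 bases. Why replicate 3 differed with length was not tested.

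After the trend of each library with coding transcript length was removed, a step chosen after seeing the data, fewer members and fewer genes in all were called. Of the 49, 13 were lower in replicate 3 and 5 higher, beside 16.0% and 10.7% of all tested genes (26.7% in either direction), and their median log2 fold change was -0.04, beside -0.02 over all tested genes. As before, 36 of the 49 members were negative, while among all 11308 tested genes the negative ones rose from 5551 to 6169. Of the 22 members first called lower, 12 were called again, and all 3 first called higher were. Dhx29 (-0.20, edgeR adjusted p = 0.000154), Dhx9 (-0.19, 4.52e-05), Dhx38 (-0.16, 0.000457) and Ddx19b (-0.29, 1.46e-07) were among those still lower. Ddx6 (edgeR adjusted p = 0.0576), Ddx3x (0.0833) and Ddx21 (0.469) were among the calls lost. Among the Dhx genes 7 of 15 were lower and 0 higher. Ddx51 (0.19) and Ddx25 (0.48) were called higher here and not in the first test. With the trend on union exon length removed instead, they had 0.0901 and 0.362 and were not called. Nor were Dhx15 (-0.0349), Ddx23 (-0.064), Ddx24 (0.011) and Ddx39b (0.0722), which kept their first calls with the coding length. Ddx25 rested on only 112, 93 and 131 counts in replicates 1, 2 and 3. Ddx47 was called lower (-0.10, edgeR adjusted p = 0.0406), but higher (0.15, 0.00393) when the trend with union exon length was removed instead, so its direction depended on the length.

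**Figure D4:**
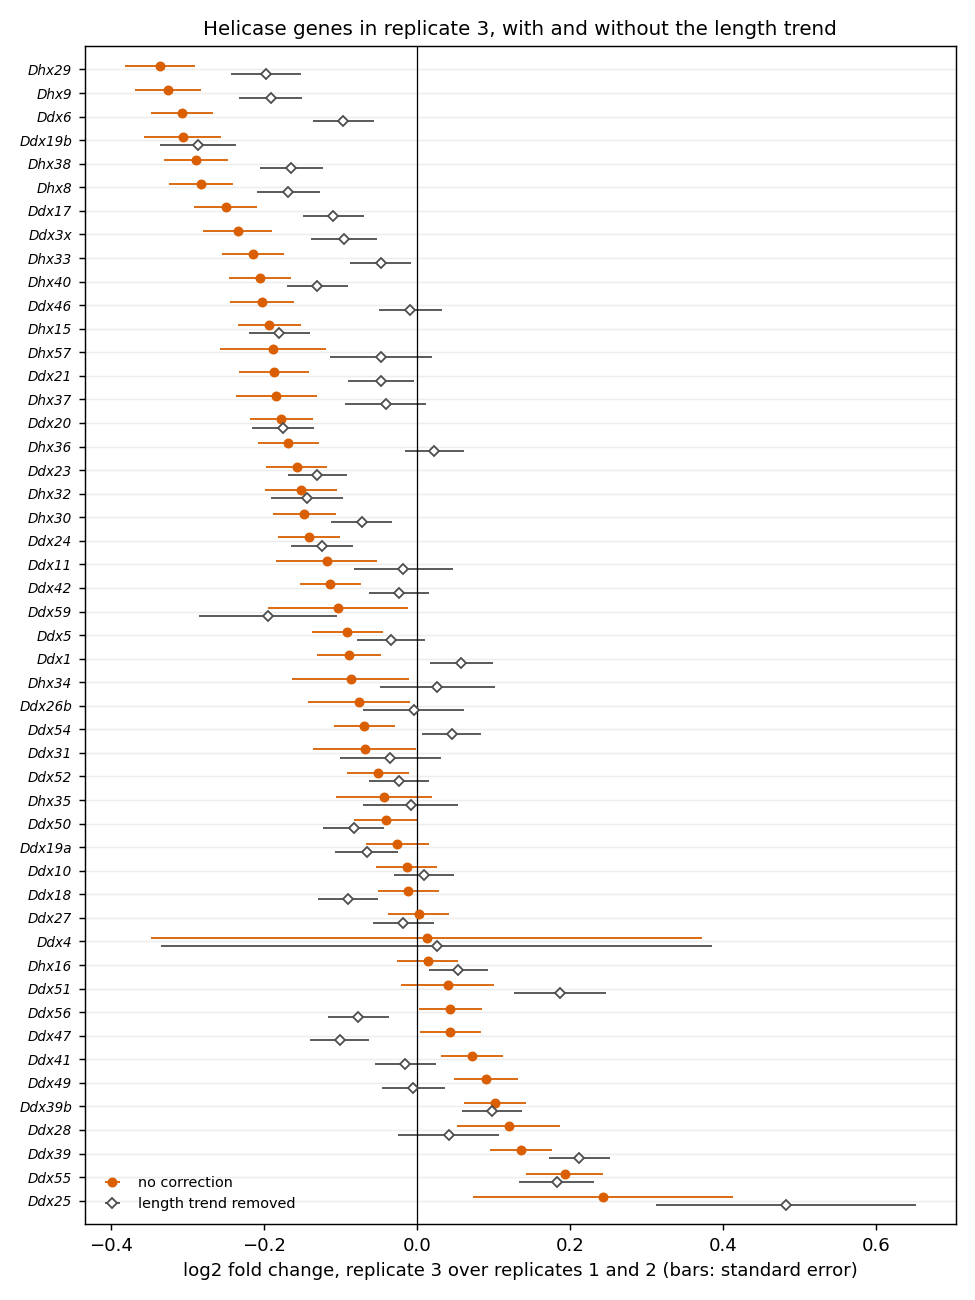
Log2 fold change of replicate 3 over replicates 1 and 2 for each tested member, as counted and with the coding-length trend removed, with bars of 1 SE. Most long members move towards 0 when the trend is removed, while Ddx19b stays near -0.3 and Ddx39 moves up. With the trend on union exon length removed instead, which is not drawn, Ddx19b had -0.195.

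Replicate 1 against the others called 9 of 11308 genes (0.0796%) and 0 of 49 members with edgeR, and replicate 2 against the others called 6 genes (0.0531%) and 0 members. At an unadjusted p of 0.05 edgeR gave 0 members in both tests, and DESeq2 called 0. In both tests the pair on the other side holds replicate 3, whose distance sets the spread, so these counts do not show that replicates 1 and 2 agree. Set directly against each other, replicate 2 minus replicate 1, the 48 expressed members had log2 differences from -0.09 (Ddx19b) to 0.18 (Ddx25), with a median size of 0.03, beside 0.05 over all tested genes.

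Related helicases and cofactors outside the naming pattern were measured for context. Their calls in replicate 3 stand beside the shares of all tested genes, not of genes of like length. Since the difference of replicate 3 went with transcript length, these counts do not compare the lists with each other or with the members. The eIF4A proteins are DEAD box helicases under another name and were all expressed. Per kilobase of exon they ran from Eif4a1 at 230.2 ± 3.53 CPM, above Ddx5, to Eif4a2 at 90.0 ± 3.38. On plain CPM Eif4a1 lay below Ddx5, at 1015, 992.5 and 985.8 against 1227, 1208 and 1119 in replicates 1, 2 and 3. In replicate 3, where 24.8% of all tested genes were called higher and 26.8% lower, 2 of the 3 were higher and 0 lower. Of 7 RNA helicases of neighbouring families, all expressed, 4 were lower and 0 higher, and they ran from Skiv2l2 at 43.5 ± 5.04, the helicase of the nuclear exosome, to Mov10 at 0.798 ± 0.0547 CPM per kilobase. Among 16 G-patch proteins, the activators of DEAH box enzymes, 7 were lower and 5 higher, against the same shares of all genes, and Gpatch4 was the most abundant at 76.4 ± 5.06 CPM per kilobase. Among 12 MIF4G-domain and other partners of DEAD box enzymes, 5 were lower and 1 higher, with Eif4g1 the highest at 103.5 ± 14.6 CPM per kilobase.

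The promoters of the helicase genes were searched for 5 short motifs known from mammalian promoters. Windows of the 250 bases before the annotated start were taken from RefSeq (GRCm38.p6), and 57 windows matched 46 of the 51 members. The letters CCGGAAG, which contain the GGAA core of sites for ETS family factors, stood on either strand in 29.8% of the member windows, beside 15.8% of 9893 windows of genes at 1 CPM or more and 6.9% of all 32851 windows. The member share is 17 of the 57 windows, and a member with several starts counts more than once. No test was made of the share of any of the 5 motifs. The GC box, GGGCGG, stood in 56.1%, 59.2% and 32.7% of these windows, and TATAAA in 5.3%, 5.6% and 12.4%. The E-box CACGTG stood in 10.5%, 8.8% and 6.0%, and CCAAT in 43.9%, 36.5% and 33.8%. CCGGAAG was found in windows of 16 members, among them Ddx5 and Ddx1, whose matching windows run into their own annotated gene. Of the members whose window lies wholly before the gene, the 3 highest per kilobase are shown, each 5′ to 3′ on its gene's strand, with the match in capitals. Ddx39b lies on the plus strand at chr17:35241496-35241745, Ddx10 on the minus strand at chr9:53248113-53248362 and Dhx9 on the minus strand at chr1:153487661-153487910.
Ddx39b: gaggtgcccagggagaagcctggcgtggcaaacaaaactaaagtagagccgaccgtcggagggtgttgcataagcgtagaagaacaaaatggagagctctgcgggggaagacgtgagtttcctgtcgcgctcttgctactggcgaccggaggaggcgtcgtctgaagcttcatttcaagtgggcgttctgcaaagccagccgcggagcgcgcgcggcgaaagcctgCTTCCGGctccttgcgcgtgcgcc
Ddx10: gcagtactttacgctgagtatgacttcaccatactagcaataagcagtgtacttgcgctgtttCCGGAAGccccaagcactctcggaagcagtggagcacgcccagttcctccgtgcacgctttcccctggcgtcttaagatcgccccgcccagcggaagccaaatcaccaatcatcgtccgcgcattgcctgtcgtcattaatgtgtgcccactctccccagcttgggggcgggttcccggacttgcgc
Dhx9: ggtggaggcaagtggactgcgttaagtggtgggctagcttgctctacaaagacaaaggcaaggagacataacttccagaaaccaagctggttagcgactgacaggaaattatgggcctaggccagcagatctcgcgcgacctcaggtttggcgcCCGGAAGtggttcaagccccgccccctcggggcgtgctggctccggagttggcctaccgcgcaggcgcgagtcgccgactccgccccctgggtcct
In Ddx39b the capitals show the reverse complement, CTTCCGG. A match describes these letters in this window and does not show binding.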

How the data were processed

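Polyadenylated RNA of 3 libraries of 1 group was analysed from the authors' deposited tables of raw counts per gene symbol. Per the submitters' processing notes, bcl2fastq, cutadapt 4.2, STAR and the mouse genome mm10 were used. How reads were counted, with which annotation and strand setting, is not stated in the sources used here. Replicates 2 and 3 carry a phrase on bortezomib culture in their cell type label that replicate 1 does not, and all were kept as 1 group by title.

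The members, lists and tests were chosen with earlier results of these data known, including that replicate 3 stands apart. Named members were the 10 highest per kilobase, the paralog pairs, the members below 1 CPM, the highest and lowest of each role and the 5 largest called differences in each direction, and others named outside this rule were chosen after their values were seen.

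Lengths were those of GENCODE M21 on GRCm38, which is mm10, and 23688 symbols matched directly, 466 by an older symbol and 313 not at all. Counts were scaled to CPM. For a gene at 0 the limit was set at 3 counts, which is 0.0482, 0.0656 and 0.0505 CPM in replicates 1, 2 and 3. Limits and intervals reflect counting alone, because PCR copies of a molecule are not independent. Tests used edgeR 4.0.16 (filterByExpr, TMM, quasi-likelihood, Benjamini-Hochberg) in R 4.3.3, with an SE taken as the fold change over the root of F. DESeq2 1.42.0, RLE scaling, no scaling, no filter and removal of length or GC trends (loess, span 0.3) were alternatives. The common biological coefficient of variation was 9.39% over all 3 libraries taken as 1 group, with replicate 3 included. Each test instead estimated its own spread with 1 library set apart. The edgeR test was tested on simulated data over 11308 genes for replicate 3 against the others, and it recovered 78.0% of 1.25-fold, 84.0% of 1.5-fold and 92.0% of 2-fold changes. The simulated spread between libraries was set below 9.39%, 200 genes were changed and no length trend was put in. The recovered shares therefore do not give the share of real differences found in these data. Sequence comparisons used Biopython 1.88.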

Additional observations from a re-analysis of the deposited data

How the results depend on the processing

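No paired analysis was possible because all libraries belong to 1 group. The log2 paralog ratios moved with the length used. With no length they were 2.44 for Ddx5 to Ddx17, -0.36 for Ddx39b to Ddx39, which reversed, 0.56 for Ddx19a to Ddx19b, 2.92 for Ddx21 to Ddx50 and 1.06 for Eif4a1 to Eif4a2. With the longest transcript the last 3 pairs had 1.94, 2.73 and 0.83, and with the coding transcript, an alternative chosen after seeing the data, 0.85, 2.02 and 0.52. These changes follow from the lengths themselves.

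Of the 49 members, replicate 3 differed in 25, in 25 with RLE scaling, 27 with no scaling, 25 with no filter, 18 with DESeq2 (1 higher and 17 lower), 21 with union exon length removed (4 and 17), 24 with GC removed (2 and 22) and 18 with coding length removed (5 and 13). The shares of all tested genes called higher and lower were 24.8% and 26.8% at first, 24.4% and 27.3% with RLE, 19.7% and 29.7% with no scaling, 17.1% and 17.9% with no filter, 12.2% and 16.0% with DESeq2, 23.2% and 25.9% with GC removed, and 10.7% and 16.0% with coding length removed. With union length removed 1693 and 1972 of 11308 genes were called higher and lower. Without the members that share sequence with or overlap other genes, also chosen after seeing the data, 2 of 40 were higher and 21 lower. With union exon length removed the log2 fold changes of Ddx50 (0.15, edgeR adjusted p = 0.00441), Dhx30 (0.0533, 0.317), Dhx36 (0.0252, 0.646) and Ddx24 (0.011, 0.855) turned positive. With coding length removed Dhx36 turned to 0.0229 (edgeR adjusted p = 0.73) and Ddx47 to -0.10 (0.0406). The median of replicate 2 against the others lay between 0.081 without replicate 1 and -0.00673 without replicate 3. The cause was not tested.

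Leaving out each library gave 48 to 48 expressed members, a median level of 93.8 CPM or more, a median log2 fold change of replicate 3 of -0.11 to -0.08, and ratios of 2.79 to 2.87, 0.07 to 0.10, 1.66 to 1.81, 3.85 to 3.94 and 1.32 to 1.39, with 9 to 10 of the 10 highest members kept. With 1 residual degree of freedom and unknown culture replicates, the p-values speak of these libraries only.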
